A study of Mus musculus with 21 samples.

Results

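The slow and fast forms of the troponins and of the myosin light chains, encoded by 10 genes, were compared in the gastrocnemius muscle of mice that differed in treadmill training. The genes were taken by symbol from the deposited table of 40853 genes, and all 10 were found in it. The 5 slow genes were Tnni1, Tnnc1, Tnnt1, Myl2 and Myl3, and the 5 fast genes were Tnni2, Tnnc2, Tnnt3, Mylpf and Myl1. They form 5 pairs of matched isoforms, namely troponin I (Tnni1 and Tnni2), troponin C (Tnnc1 and Tnnc2), troponin T (Tnnt1 and Tnnt3), the regulatory light chain (Myl2 and Mylpf) and the essential light chain (Myl3 and Myl1).

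Troponin sits on the thin filament of the sarcomere, where troponin C binds calcium, troponin I holds back contraction at rest and troponin T anchors the complex to tropomyosin. The essential and regulatory light chains wrap the neck of the myosin heavy chain and set how its head moves. Slow fibers and fast fibers use different genes for each of these proteins, so the balance of the isoforms follows the fiber types of a muscle.

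The 21 mice were female C57BL/6NJ, 7 in each of 3 groups, and each gave 1 library of poly(A)-selected RNA from the medial gastrocnemius belly, taken whole. The Inactive group stayed in standard cages for 6 weeks, the Active group ran on a treadmill 5 days per week for 6 weeks, and the Activity Reduction group ran for 4 weeks and was then inactive for 2 weeks. Mice were 10 weeks old at the start, and sessions reached 40 min, mostly at about 70% of maximal speed. All mice, the Inactive group included, also ran graded maximal tests, and muscle was taken 48 to 72 h after the last of them, from mice that had been fasted for some hours (5 to 6 h per the series description).

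Libraries held from 38482455 to 59785132 counts. The slow genes together held from 0.0334% to 0.104% of the counts of a library and the fast genes from 4.04% to 4.75%, so counting error was small for every gene but Mylpf. Transcripts of 20 liver genes divided the libraries into 8 with more and 13 with fewer of them, and Alb, which encodes albumin, was at 365 to 1155 CPM (counts scaled to library size) in the former and 71.1 to 161 CPM in the latter. The 8 libraries were 1 Inactive, 5 Active and 2 Activity Reduction mice, so results are also given within this division. They were also the first 8 in the numbering of the deposited samples. The division therefore cannot be told apart from sample order.

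The promoters of a pair of slow genes that moved together over libraries are shown beside that of Mylpf, the fast gene with few counts. RefSeq windows of 250 bases before an annotated start site were matched by symbol for 8 of the 10 genes, 10 windows in all, and each was found once in GRCm39. Since genes can have several start sites, windows also held exon bases of their own gene in GENCODE, 19 in the Tnni1 window shown, 29 in that of Tnnt1, 0 in that of Mylpf and up to 203, for Myl1, in those not shown. The windows below, read 5′ to 3′ on the strand of the gene, are those of the slow genes Tnni1 (chr1:135726909-135727158, plus strand) and Tnnt1 (chr7:4518975-4519224, minus strand) and of the fast gene Mylpf (chr7:126810530-126810779, plus strand). Capitals mark E-boxes (CANNTG, the motif of MyoD and its relatives) and the TATA box (TATAAA), searched on both strands. The MEF2 and CArG motifs were searched in the same way.
Tnni1: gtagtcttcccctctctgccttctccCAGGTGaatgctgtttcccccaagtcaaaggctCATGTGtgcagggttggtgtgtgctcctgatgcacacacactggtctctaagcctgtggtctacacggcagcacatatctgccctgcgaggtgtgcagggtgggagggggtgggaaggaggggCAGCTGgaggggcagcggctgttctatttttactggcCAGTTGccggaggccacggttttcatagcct
Tnnt1: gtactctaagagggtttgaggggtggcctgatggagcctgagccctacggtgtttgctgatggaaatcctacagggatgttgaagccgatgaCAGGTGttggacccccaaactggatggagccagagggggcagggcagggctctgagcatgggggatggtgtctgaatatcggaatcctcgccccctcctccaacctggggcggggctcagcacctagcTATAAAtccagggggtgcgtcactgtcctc
Mylpf: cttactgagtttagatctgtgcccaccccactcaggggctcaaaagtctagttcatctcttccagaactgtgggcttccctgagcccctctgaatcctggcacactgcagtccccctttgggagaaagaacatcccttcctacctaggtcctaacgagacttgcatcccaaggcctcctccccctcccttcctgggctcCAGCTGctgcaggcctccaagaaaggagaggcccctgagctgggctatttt
The Tnni1 window shown held 4 E-boxes. A later Tnni1 window, not shown, overlapped it and held 2, the same sites as 2 of these 4. The windows of Tnnt1 and Mylpf held 1 each, and Tnnt1 had a TATA box 30 bases before its start site. Both Myl2 windows, not shown, ended (at 122230786 and 122231251 of chromosome 5) ahead of the GENCODE start of the gene at 122238848. An E-box was in 10 of the 10 windows of the members and in 66.2% of all 32851 windows of this length. The MCAT motif (CATTCC) was in 3 of the 10 and in 12.6% of all windows, and TATAAA was in 3 of the 10 and in 12.4%. A CArG box was in 1 window, that of Myl3, against 1.47% of all windows, and the MEF2 motif was in 0, against 0.508%.

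Fast genes were far more abundant than slow genes in this muscle. Levels between genes are given as normalized counts (counts divided by DESeq2's size factor of the library) per kb of the canonical transcript, as mean ± SD over the 21 libraries. Fast troponin C, Tnnc2, had 803285 ± 59024 per kb, above fast troponin T, Tnnt3, with 532315 ± 26293, fast troponin I, Tnni2, with 412386 ± 31552, and the fast essential light chain, Myl1, with 277020 ± 25125. The ranges of these 4 genes did not overlap. Slow genes followed with 14474 ± 2637 per kb for Myl3, 10879 ± 2232 for Myl2, 8512 ± 2547 for Tnnt1, 6332 ± 2107 for Tnnc1 and 4093 ± 1344 for Tnni1. Each of these 5 overlapped its neighbors in that order. Among the heavy chains, the fast Myh4 was at 672307 ± 69917 per kb and the slow Myh7 at 3730 ± 1274.

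Mylpf, the fast regulatory light chain, stood apart from the other fast genes at 173 ± 34.7 per kb. It had only 92 to 179 raw counts per library and 2797 in all, whereas Septin1, whose exons overlap 24.6% of those of Mylpf on the opposite strand, had 3061. The transcript of Mylpf matched no other place in GRCm39 at 90% identity or more. The level of Mylpf is therefore taken as uncertain, its cause was not tested, and its ratio to Myl2 is not read as a balance of light chains. Counts of Myl1 are also uncertain, since 59.5% of its transcript matched another locus at 98.9% identity, and 68.7% of the exons of Tnnc2 overlap Ube2c on the opposite strand, which had 205 counts in all against 12791815 for Tnnc2. The strand setting of the counting is not given in the sources used here.

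Slow troponin I, Tnni1 (GRCm39 chromosome 1, 135707172 to 135738727), was measured at 4417, 5492 and 5806 normalized counts in Inactive mice (lowest, median and highest of 7 mice). The same values in Active mice were 1965, 5271 and 5980, and in Activity Reduction mice 945, 3819 and 6042. Groups overlapped, and 4 Activity Reduction mice and 2 Active mice lay below the lowest Inactive mouse. The mean was 5313 ± 517 (SD, n = 7), 4671 ± 1371 and 3586 ± 1852 in the same order of groups, so the coefficient of variation (SD over mean) was 9.73%, 29.4% and 51.6%. In a mixed muscle, fewer slow fibers and less RNA per slow fiber cannot be told apart. Its partner in fast fibers, Tnni2 (chromosome 7, 141995545 to 141998147), had 272573, 297966 and 314457 normalized counts in Inactive mice, 269437, 302050 and 316818 in Active mice and 250930, 316936 and 351940 in Activity Reduction mice. The coefficient of variation of Tnni2 was 4.34%, 6.44% and 9.86%, and 5 Activity Reduction mice lay above the highest Inactive mouse.

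Slow troponin C, Tnnc1 (chromosome 14, 30930232 to 30933708), had 4690, 5703 and 6128 normalized counts in Inactive mice. It had 1817, 5475 and 5910 in Active mice and 1107, 3947 and 5471 in Activity Reduction mice. Of the Activity Reduction mice, 5 lay below every Inactive mouse, and 2 Active mice did so. Fast troponin C, Tnnc2 (chromosome 2, 164619075 to 164621887), had 567499, 605532 and 657937 in Inactive mice, 525918, 571141 and 636897 in Active mice and 548651, 614944 and 707704 in Activity Reduction mice. These ranges overlapped on both sides.

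Slow troponin T, Tnnt1 (chromosome 7, 4507567 to 4519381), had 9316, 10961 and 13048 normalized counts in Inactive mice. It had 4121, 10738 and 11660 in Active mice and 2979, 8120 and 10589 in Activity Reduction mice, where 4 mice lay below every Inactive mouse and none lay above the highest. Fast troponin T, Tnnt3 (chromosome 7, 142048605 to 142070280), was the steadiest of the 10 genes, with a coefficient of variation of 4.94% over the 21 libraries. It had 864903, 922306 and 1012616 in Inactive mice, 844756, 907956 and 973396 in Active mice and 896777, 973964 and 999583 in Activity Reduction mice.

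Light chains of slow fibers were also lowest on average in Activity Reduction mice, with a smaller spread than the slow troponins. The slow regulatory chain, Myl2 (chromosome 5, 122238848 to 122251545), had 8198, 9518 and 11147 normalized counts in Inactive mice, 6685, 10190 and 11546 in Active mice and 4380, 8629 and 9751 in Activity Reduction mice. The slow essential chain, Myl3 (chromosome 9, 110570929 to 110599396), had 13107, 14867 and 16031 in Inactive mice, 9795, 14096 and 16922 in Active mice and 7679, 13470 and 15040 in Activity Reduction mice. For both genes, 3 Activity Reduction mice and 1 Active mouse lay below the lowest Inactive mouse. The fast essential chain, Myl1 (chromosome 1, 66963454 to 66984642), had 275677, 307189 and 366851 in Inactive mice, 274322, 330705 and 358427 in Active mice and 316091, 335296 and 394077 in Activity Reduction mice. Mylpf (chromosome 7, 126807207 to 126813470) had 86.1, 113 and 143 in Inactive mice, 105, 138 and 163 in Active mice and 105, 146 and 181 in Activity Reduction mice, with 5 Activity Reduction mice above the highest Inactive mouse. The plot of the members by group shows these values for every mouse.

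**Figure D1:**
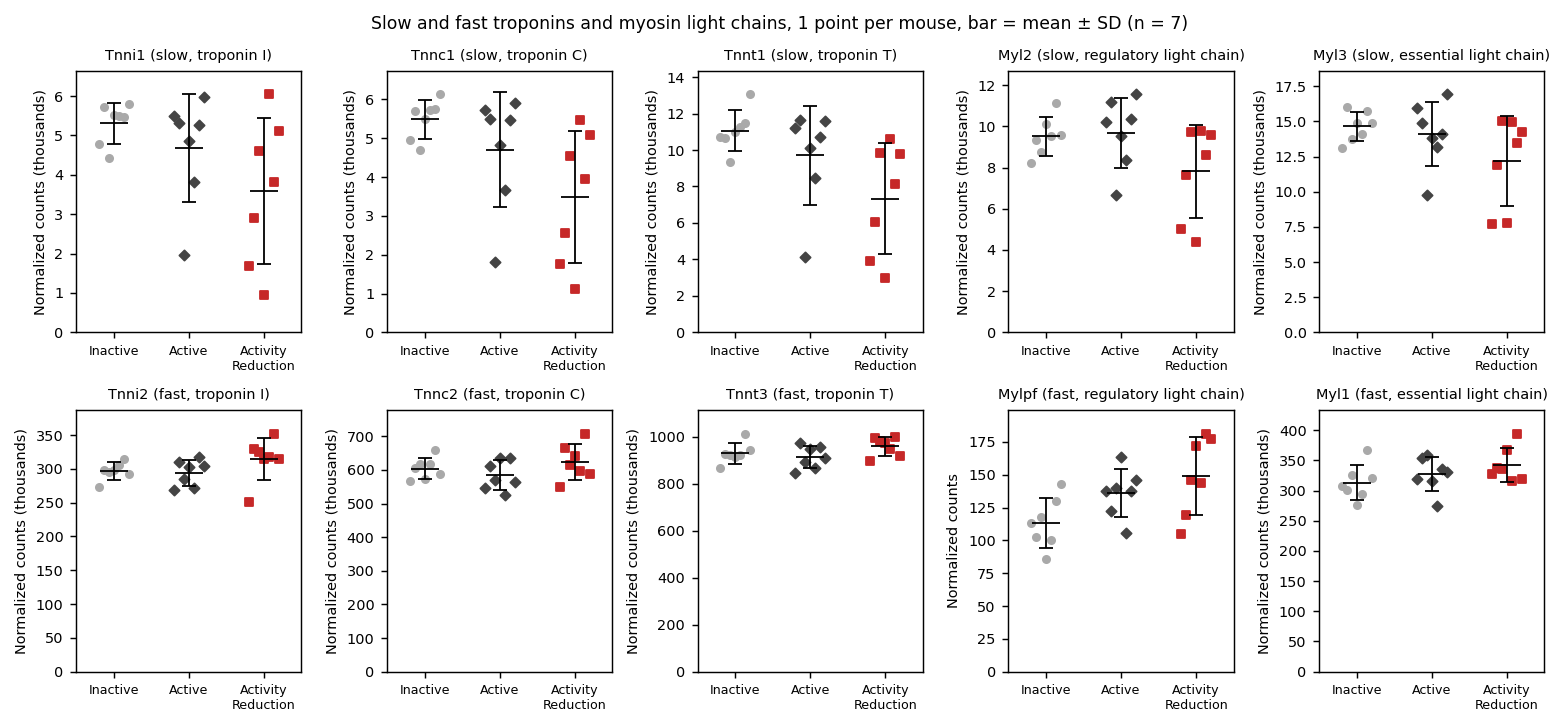
Normalized counts of the 5 slow genes (upper row) and their fast partners (lower row), on axes scaled to each gene, with 1 point per mouse in the Inactive (gray circles), Active (dark diamonds) and Activity Reduction (red squares) groups and the mean ± SD as bars. In the slow genes the Activity Reduction mice reach from the Inactive level down to 945 counts for Tnni1, whereas the fast genes other than Mylpf stay within a narrow band.

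Whether stopping or keeping up training changed these genes was tested by edgeR's quasi-likelihood method on 16129 genes, with all 21 libraries in 1 model. A gene passed if its p-value, adjusted by Benjamini-Hochberg over all genes, was under 0.05 and if the groups differed by more than 0.25 on the log2 scale, either way. None of the 10 members passed in any of the 3 comparisons, 0 of 10 each. Across all genes tested, 0% passed in Active against Inactive, 0.0124% in Activity Reduction against Inactive and 0% in Activity Reduction against Active, and 0% passed the edgeR F-test over the 3 groups. DESeq2 also gave 0 of 10 members in each comparison. Of the genes to which it gave an adjusted p-value, it counted 62 of 11826 (0.524%) in Active against Inactive. It counted 21 of 2587 (0.812%) in Activity Reduction against Inactive and 115 of 14544 (0.791%) in Activity Reduction against Active. It gave Mylpf no adjusted p-value in Activity Reduction against Inactive.

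Against the Inactive mice, the Activity Reduction mice had estimates for the 5 slow genes that were all below 0 and for the 5 fast genes all above 0. The median log2 fold change was -0.56 for the slow genes and 0.09 for the fast genes, against 0.01 for all genes tested. At an unadjusted p-value under 0.05, 4 of the 10 members differed, against 7.73% of all genes. These were, on the log2 scale, Tnnc1, with -0.65 (standard error 0.275), Tnnt1, with -0.59 (standard error 0.237), Mylpf, with 0.40 (standard error 0.135), and Myl1, with 0.13 (standard error 0.0643). They are not 4 separate results, since Tnnc1 and Tnnt1 had a correlation of 0.993 over the 21 libraries. The counts of Mylpf and Myl1 are uncertain, as given above. Tnni1 had -0.56 (standard error 0.285), Myl2 -0.28 (standard error 0.154) and Myl3 -0.26 (standard error 0.138), and Tnni2, Tnnc2 and Tnnt3 had 0.09, 0.05 and 0.05. Without Activity Reduction replicate 4, Myl2 had -0.183. With 1 mouse left out in turn, the estimate nearest to 0 was -0.496 for Tnnc1, -0.458 for Tnnt1 and -0.401 for Tnni1. The highest unadjusted edgeR p-value was then 0.0595 for Tnnc1, 0.0454 for Tnnt1, 0.0222 for Mylpf and 0.161 for Myl1. The adjusted p-values of the 10 members lay between 0.450 and 0.912 (edgeR, adjusted by Benjamini-Hochberg).

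Between Active and Inactive mice the estimates of the slow genes lay nearer to 0. The slow genes had log2 fold changes of -0.18 for Tnni1, -0.22 for Tnnc1, -0.18 for Tnnt1, 0.03 for Myl2 and -0.05 for Myl3, with standard errors from 0.138 for Myl3 to 0.284 for Tnni1. Without Active replicate 3 the slow troponins had -0.0466 for Tnni1, -0.0770 for Tnnc1 and -0.0512 for Tnnt1, and their signs turned once the division by liver transcripts was in the model, to 0.0906, 0.0628 and 0.0273. Among the fast genes they were -0.01 for Tnni2, -0.04 for Tnnc2, -0.02 for Tnnt3, 0.27 for Mylpf and 0.07 for Myl1. At an unadjusted p-value under 0.05, 0 of the 10 members differed, against 10.9% of all genes, and the adjusted p-values lay between 0.475 and 0.981 (edgeR).

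Between the Activity Reduction and Active groups, which differ by the final 2 weeks, the slow genes were again all below 0 and the fast genes all above 0. Both comparisons of the Activity Reduction group use the same 7 mice. The log2 fold change was -0.38 for Tnni1, -0.43 for Tnnc1, -0.41 for Tnnt1, -0.31 for Myl2 and -0.21 for Myl3, and it was 0.10 for Tnni2, 0.09 for Tnnc2, 0.07 for Tnnt3, 0.13 for Mylpf and 0.07 for Myl1. Without Activity Reduction replicate 4 this became -0.219 for Tnni1, -0.276 for Tnnc1 and -0.134 for Myl3, and without Activity Reduction replicate 1 it became -0.133 for Myl3. Mylpf had 0.0712 without Active replicate 5, 0.0735 without Activity Reduction replicate 6 and 0.0780 without Activity Reduction replicate 7. At an unadjusted p-value under 0.05, 0 of the 10 members differed, against 13.3% of all genes. Over the 3 groups at once, only Mylpf of the 10 was under 0.05 before adjustment, against 12.6% of all genes. The plot of log2 fold changes places the 3 comparisons side by side.

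**Figure D2:**
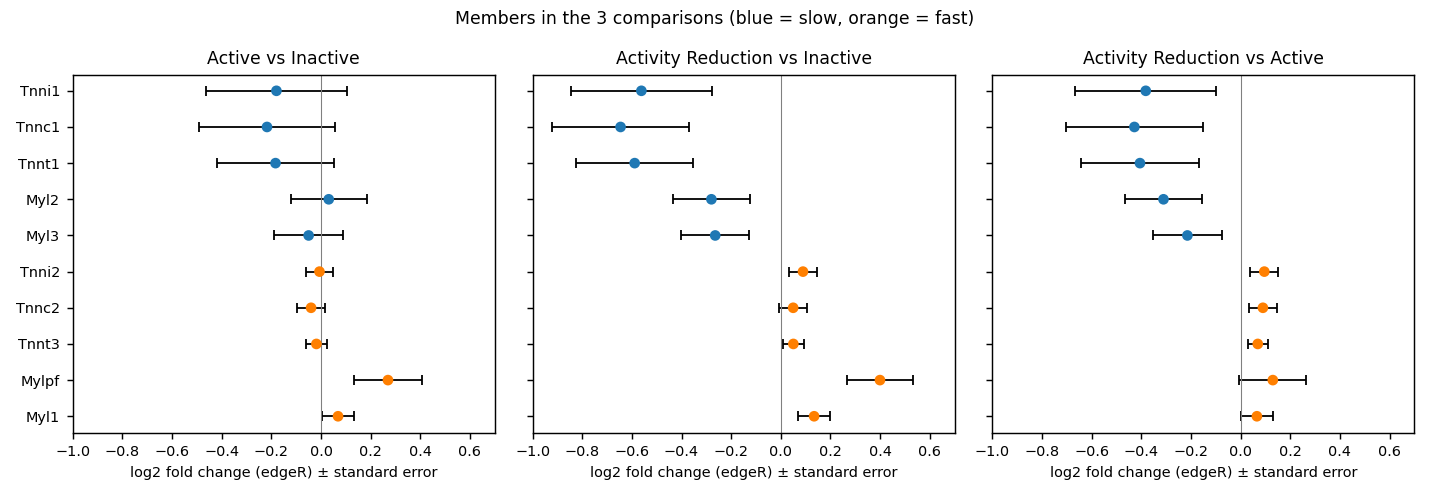
log2 fold change (x axis, edgeR) of each member in the 3 comparisons, with slow genes in blue, fast genes in orange and the standard error as bars. In Activity Reduction against Inactive the slow genes lie from -0.65 for Tnnc1 to -0.26 for Myl3 and the fast genes from 0.05 to 0.40.

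A ratio of a slow to a fast isoform within 1 library needs no scaling between libraries, and it was compared over groups by an exact permutation test of the mean log2 ratio (two-sided, 7 mice against 7, for which the smallest possible p is 0.000583). In all, 15 such tests were made, 5 pairs in 3 comparisons, and their p-values are not adjusted. Such a test takes the mice of both groups as exchangeable, so a difference in spread enters its p-value beside one in the mean. The spread did differ. For troponin I the SD of the log2 ratio was 0.131 in Inactive, 0.531 in Active and 0.914 in Activity Reduction mice. The 5 ratios are not independent of each other, since the slow genes moved together over libraries.

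Per 1000 counts of Tnni2, Tnni1 had 15.0, 18.0 and 19.8 counts in Inactive mice (lowest, median and highest of 7 mice), 6.89, 16.6 and 20.4 in Active mice and 3.00, 10.9 and 19.1 in Activity Reduction mice. In the latter, 5 of the 7 mice lay below every Inactive mouse and none lay above. The mean log2 ratio of the Activity Reduction group differed from that of the Inactive group by -0.87 (standard error 0.349, exact permutation p = 0.00991). Per 1000 counts of Tnnc2, Tnnc1 had 7.59, 9.24 and 10.4 counts in Inactive mice, 3.18, 8.60 and 10.5 in Active mice and 1.72, 5.58 and 9.19 in Activity Reduction mice. This was a log2 difference of -0.88 between the Activity Reduction and Inactive groups (standard error 0.337, exact permutation p = 0.00874), with 5 of 7 mice below the Inactive range. For troponin T, the counts of Tnnt1 per 1000 of Tnnt3 were 10.1, 12.02 and 13.8 in Inactive mice, 4.62, 11.3 and 13.3 in Active mice and 3.06, 8.12 and 11.2 in Activity Reduction mice. The log2 difference was -0.77 (standard error 0.275, exact permutation p = 0.00291), again with 5 of 7 mice below the Inactive range.

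The essential light chain showed the same order with a smaller difference. Myl3 had 42.3, 46.5 and 53.9 counts per 1000 of Myl1 in Inactive mice, 27.3, 43.9 and 51.2 in Active mice and 21.3, 35.2 and 47.4 in Activity Reduction mice. Of the Activity Reduction mice, 4 lay below the Inactive range, and the log2 difference was -0.45 (standard error 0.184, exact permutation p = 0.0251). Without Inactive replicate 2 the p was 0.0536 and without Inactive replicate 4 it was 0.0542, by the same exact permutation test. The regulatory pair, whose denominator Mylpf had few counts, had log2 ratios of 6.07, 6.42 and 6.88 in Inactive mice, 5.58, 6.23 and 6.51 in Active mice and 4.67, 5.75 and 6.08 in Activity Reduction mice. This was a log2 difference of -0.73 (standard error 0.214, exact permutation p = 0.00117), with 6 of 7 mice below the Inactive range. With Myl1 in place of Mylpf, a choice made after the data were seen, Myl2 differed by -0.47 (standard error 0.207, exact permutation p = 0.0303) with 4 of 7 mice below the Inactive range. The 3 troponin ratios and the essential ratio, whose denominator Myl1 is itself uncertain, were thus lower in Activity Reduction mice than in Inactive mice at p under 0.05 before any adjustment, as was the regulatory ratio with either denominator.

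Between the Active and Inactive groups, 0 of 5 ratios differed at that level. Below the lowest Inactive mouse lay 2 Active mice for troponin I, 3 for troponin C and 2 for troponin T. For the regulatory pair 2 Active mice did so, and for the essential pair 3. Above the highest Inactive mouse lay 1 Active mouse for troponin I, 2 for troponin C and 0 for troponin T, the regulatory pair and the essential pair. The log2 differences were -0.24 for troponin I, -0.26 for troponin C, -0.23 for troponin T, -0.26 for the regulatory pair and -0.13 for the essential pair, with exact permutation p-values from 0.131 to 0.365 and standard errors from 0.129 to 0.231. Without Active replicate 3 they were -0.0530, -0.0521, -0.0392, -0.167 and -0.0265 in the same order, and in the 13 libraries with fewer liver transcripts those of the troponins turned positive, to 0.0152, 0.0542 and 0.0242. Between the Activity Reduction and Active groups, 1 of 5 did, the regulatory pair, with -0.47 (standard error 0.221, exact permutation p = 0.0402). With Myl1 as its denominator this became -0.42 (standard error 0.227, exact permutation p = 0.0991). The other 4 ratios had log2 differences of -0.63 for troponin I, -0.62 for troponin C, -0.54 for troponin T and -0.31 for the essential pair, with exact permutation p-values from 0.123 to 0.163. Without Activity Reduction replicate 4 they became -0.345 for troponin I, -0.369 for troponin C, -0.344 for troponin T and -0.198 for the essential pair, and the regulatory pair had -0.301. Active replicate 3 decided how many of these passed, and without it 4 of the 5 ratios were under 0.05, with exact permutation p-values of 0.0367 for troponin I, 0.0431 for troponin C and 0.0245 for troponin T. The regulatory pair lost its call without any of 9 other mice, Active replicates 1, 2, 5, 6 and 7 and Activity Reduction replicates 1, 4, 6 and 7, with exact permutation p-values from 0.0519 to 0.0851. The plot of ratios by group shows all 5 pairs.

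**Figure D3:**
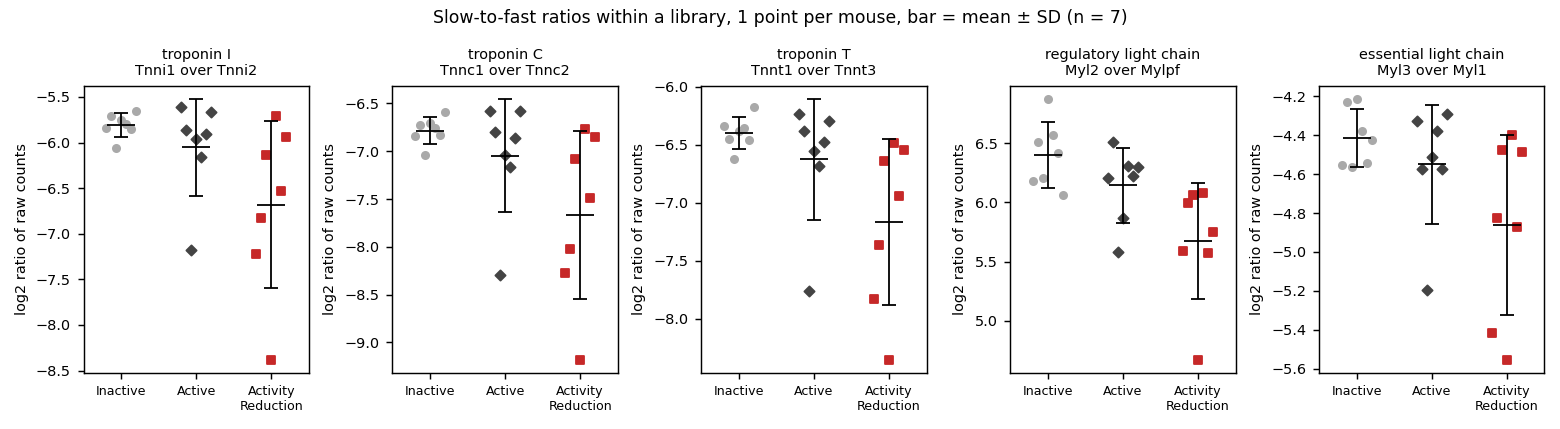
log2 ratio of raw counts of the slow over the fast gene of each pair (y axis) in the 3 groups, with 1 point per mouse and the mean ± SD as bars. In the 3 troponin pairs, 5 of 7 Activity Reduction mice lie below the lowest Inactive mouse. So do 2 Active mice for troponin I, 3 for troponin C and 2 for troponin T. Above the highest Inactive mouse lie 1 Active mouse for troponin I and 2 for troponin C. Active replicate 3 lies apart from the other Active mice.

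The lower mean of the slow genes came from some mice of the group and not from all. In Activity Reduction replicates 1, 2 and 4 and in Active replicate 3, all 5 slow genes lay below the lowest Inactive mouse. Activity Reduction replicate 4 was the lowest for every slow gene but Myl3. It had 17.2% of the Inactive median for Tnni1, 19.4% for Tnnc1, 27.2% for Tnnt1 and 46.0% for Myl2. For Myl3 it had 52.6%, and Activity Reduction replicate 1 was lowest with 51.7%. Activity Reduction replicate 1 had between 30.5% and 52.8% of the Inactive median over the 5 genes, Activity Reduction replicate 2 between 44.8% and 80.1%, and Active replicate 3 between 31.9% and 70.2%. Activity Reduction replicates 5 and 7 were within the Inactive range or above it for all 5 genes, and replicate 5 had 110% of the Inactive median for Tnni1. In each of the 4 low libraries the troponins lay further down than the light chains, as the plot by library shows. Of the 4, Active replicate 3 and Activity Reduction replicates 1 and 2 belonged to the libraries with more liver transcripts and Activity Reduction replicate 4 to those with fewer.

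**Figure D4:**
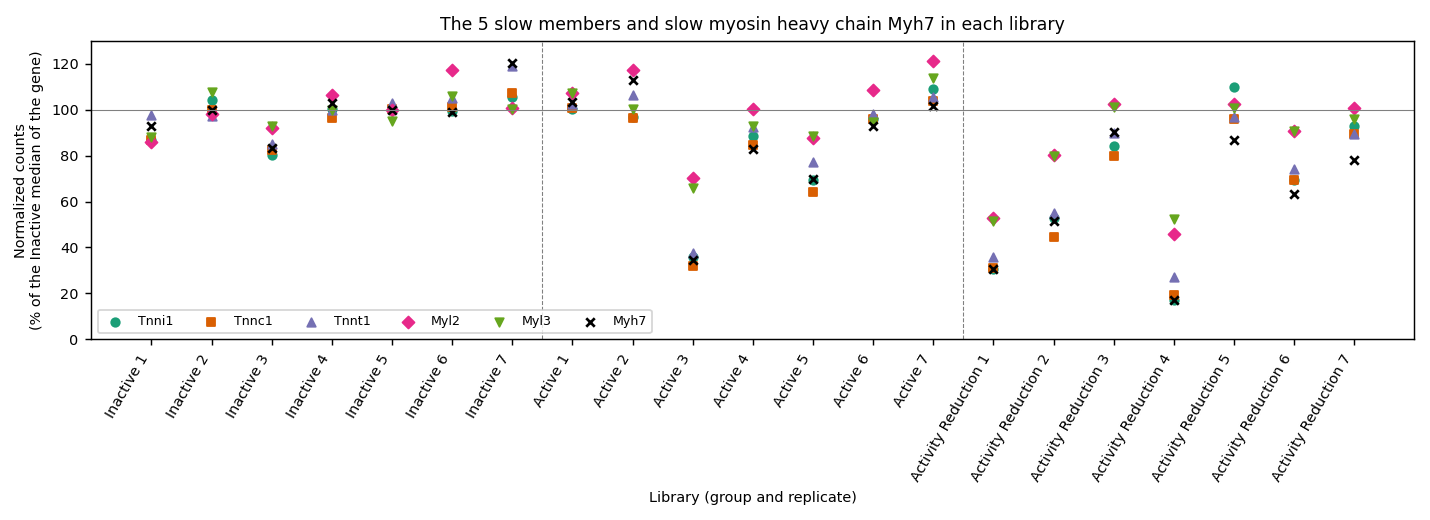
Normalized counts of the 5 slow genes and of Myh7 in each of the 21 libraries (x axis), as a percentage of the median of the Inactive group for that gene (y axis), with groups parted by dashed lines. Inactive libraries lie between 80.4% and 120%, whereas Activity Reduction replicate 4 has 17.2% for Tnni1 and 52.6% for Myl3.

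Slow genes moved together over libraries, and the slow heavy chain moved with them. The 10 pairs of slow genes had Pearson correlations of log2 normalized counts between 0.941 and 0.993 over the 21 libraries (Spearman 0.752 to 0.944). Their correlation with Myh7, the heavy chain of slow fibers, was between 0.943 and 0.989. Within Inactive mice alone the 10 pairs had correlations between 0.355 and 0.966, within Active mice between 0.944 and 0.998, and within Activity Reduction mice between 0.951 and 0.995 (n = 7 mice each). Fast genes were less tightly tied, with 0.366 to 0.874 for their 10 pairs, and Tnnc2 with Tnnt3 was the closest at 0.874. Slow with fast genes had correlations between -0.384, for Tnni1 with Myl1, and 0.286, for Myl3 with Tnni2. These values describe libraries that share the division by liver transcripts and the scaling of each library.

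**Figure D5:**
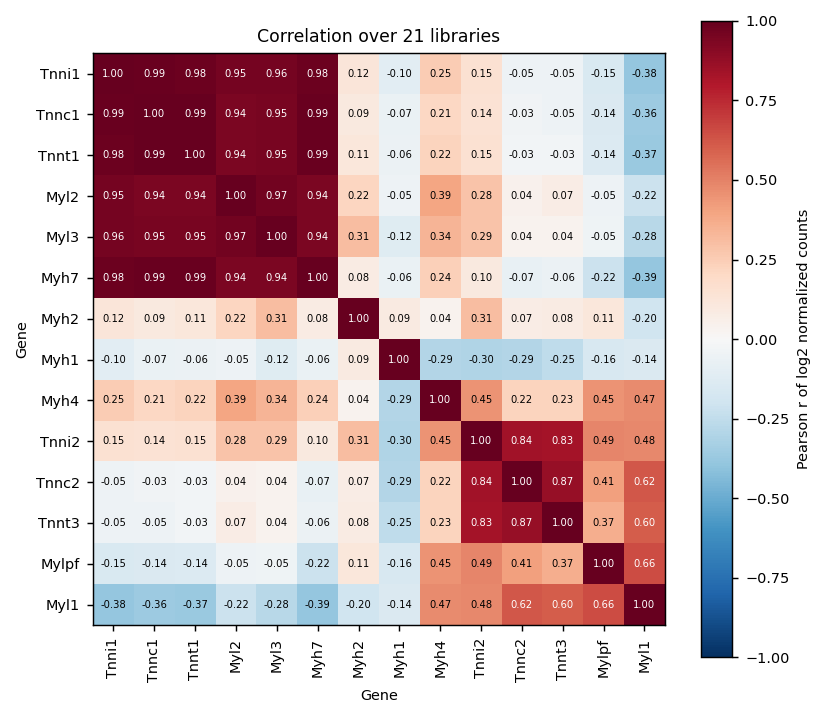
Pearson correlation of log2 normalized counts over the 21 libraries for the 10 members and 4 heavy chains (color scale from -1 to 1, value in each cell). The 5 slow genes and Myh7 form 1 block with correlations from 0.941 to 0.993, and the fast genes form a looser one.

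Within the division by liver transcripts the slow genes kept their order of groups in the comparison of the Activity Reduction and Inactive mice. Where liver transcripts were fewer (13 libraries), the log2 difference in normalized counts between 5 Activity Reduction and 6 Inactive mice was -0.63 for Tnni1, -0.65 for Tnnc1, -0.55 for Tnnt1, -0.27 for Myl2 and -0.22 for Myl3. In the other 8 libraries, with 2 Activity Reduction mice and 1 Inactive mouse, it was -1.12, -1.22, -1.14, -0.41 and -0.46. The exact permutation p of the slow-to-fast ratio in the 13 libraries was 0.0325 for troponin I, 0.0238 for troponin C, 0.0108 for troponin T, 0.00649 for the regulatory pair and 0.0758 for the essential pair, whose difference there was -0.37. Between the Active and Inactive groups, with 2 and 6 mice there, the 5 slow genes had log2 differences from 0.01 for Tnnt1 to 0.17 for Myl2. In the 8 libraries with more liver transcripts, 5 Active mice differed from 1 Inactive mouse by -0.24 for Tnni1, -0.31 for Tnnc1 and -0.32 for Tnnt1. Myl2 and Myl3 had 0.14 and 0.03 in these 8 libraries.

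Markers of other cell types were present at low levels in every group. The summed level of 5 endothelial markers was 163 to 208 CPM in Inactive mice, 174 to 236 CPM in Active mice and 154 to 183 CPM in Activity Reduction mice. In Activity Reduction against Inactive, 0 of 5 markers of endothelial cells, adipocytes, Schwann cells, macrophages or 4 of smooth muscle, and 1 of 5 of tendon and 2 of 5 of erythrocytes, were under an unadjusted edgeR p-value of 0.05, against 7.73% of all genes. In Active against Inactive, 3 of 5 endothelial markers (Pecam1, Cdh5 and Kdr), 2 of 5 macrophage markers (Csf1r and Mrc1) and 1 of 5 erythrocyte markers were higher at that level, against 10.9% of all genes. In Activity Reduction against Active, the same 3 endothelial and 2 macrophage markers were lower and 1 of 5 tendon markers was higher, against 13.3%. The other 4 tendon markers had estimates below 0, and the median log2 fold change of the 5 was -0.788. Kdr, a receptor of endothelial cells, had log2 fold changes of 0.29 in Active against Inactive and -0.42 in Activity Reduction against Active. Csf1r, a receptor of macrophages, had 0.53 and -0.74. The median of the 5 markers was 0.137 and -0.171 for endothelial cells and 0.279 and -0.333 for macrophages. In the former comparison 1 of 5 markers of each list was below 0. In the latter all 5 endothelial markers were below 0 and 1 of 5 macrophage markers was above 0. No list had a defining marker at 0 in all libraries. Their part in the differences of the slow genes was not tested.

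Other sarcomere genes and their regulators were counted in lists, with 59 of 61 genes tested, and 0 of the 59 passed the edgeR thresholds in any comparison. DESeq2, an alternative added after the data were seen, counted 2 of them, Atp2a2 in Activity Reduction against Inactive (log2 fold change -0.70, adjusted p = 0.0454) and Casq2 in Activity Reduction against Active (-0.43, adjusted p = 0.0102). Atp2a2 encodes the calcium pump of slow fibers and Casq2 a calcium store protein that slow and cardiac muscle use. Among the heavy chains, Myh7 had 27988 ± 3146 normalized counts in Inactive mice, 23939 ± 7443 in Active mice and 16720 ± 7898 in Activity Reduction mice (SD, n = 7). Its log2 fold change in Activity Reduction against Inactive was -0.74 (standard error 0.276), with an adjusted p of 0.506 from edgeR. Myh7b, a related slow chain, had -0.69, whereas the fast chains had 0.05 for Myh2, -0.00236 for Myh1 and 0.12 for Myh4, and the developmental chain Myh8 had -0.00499. In Active against Inactive, Myh4 had 0.19 and Myh8 0.22, and 3 of 7 heavy chains were higher at an unadjusted p-value under 0.05 while 0 were lower, against 10.9% of all genes that differed either way.

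In the other thin filament genes, Tpm3, the tropomyosin of slow fibers, had -0.64 (standard error 0.244) in Activity Reduction against Inactive on the log2 scale, Acta1, skeletal actin, had 0.13 and Tmod4, which caps thin filaments, had -0.05. Actc1, cardiac actin, had 0.47 in Active against Inactive and -0.66 in Activity Reduction against Active. Of the other thick filament genes, Myom2, an M-band protein, had 0.21 in Activity Reduction against Inactive, Mylk2, the kinase of the regulatory light chain, had 0.19, Mybpc1, slow myosin-binding protein C, had 0.18 and the nonmuscle light chain Myl6 had 0.12. Of the 12 thick filament genes, 4 were higher and 1 was lower in that comparison at an unadjusted p-value under 0.05, against 7.73% of all genes either way. Calcium handling genes named by the same rule were Atp2a2, with -0.70, Casq2, with -0.27, Sln, an inhibitor of the calcium pump, with -0.40, and Casq1, the fast partner of Casq2, with 0.11.

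Of 5 cardiac and developmental isoforms, 3 were tested and 1 was at 0 in all libraries. In Activity Reduction against Inactive, Tnnt2, cardiac troponin T, had 0.38 on the log2 scale (standard error 0.139), Myl4, the atrial light chain, had 0.23 and Myh6, the cardiac heavy chain next to Myh7, had -0.63. Whether counts of Myh6 hold reads of Myh7, whose sequence is close to it, was not tested. The 19 regulators had a median log2 fold change of -0.00191 in that comparison, and 3 were higher and 1 was lower at an unadjusted p-value under 0.05, against 7.73% of all genes either way. Tbx15, a factor of fast fibers, had 0.16, Ppargc1a, a coactivator tied to endurance fibers, had 0.14, Mef2d, a muscle transcription factor, had 0.12 and Myod1 had -0.02. Myod1 had -0.39 in Active against Inactive and 0.37 in Activity Reduction against Active. No adjusted p-value of these genes was under 0.05 in edgeR.

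The genes whose log2 CPM most resembled the mean of the 5 log2 slow-to-fast ratios over the 21 libraries were ranked by Pearson correlation among 16119 other genes tested, as a description. Myh7 was first with 0.984, followed by Atp2a2 with 0.982, Tpm3 with 0.980 and Myh7b with 0.929. Then came Rspo3 with 0.896, Strit1 with 0.878, Lgi1 with 0.872, Xpo4 with 0.846, Fam240a with 0.843 and Myh6 with 0.835. Rspo3 and Fam240a did not hold this within the Inactive mice, where they had -0.454 and -0.393. The lowest were Hoxa13 with -0.849, Mss51 with -0.805, Gm52697 with -0.788, Trim8 with -0.782 and Prune2 with -0.770. Within the Inactive mice Hoxa13 had -0.0273, Mss51 -0.167 and Prune2 0.0893. With the regulatory pair left out of the mean, a choice made after the data were seen, 8 of these 10 highest and 4 of these 5 lowest genes were again among the 10 and the 5, and Fam240a, Myh6 and Trim8 were not. Mss51 had a mean of 1908 normalized counts in Inactive mice, 2443 in Active mice and 5172 in Activity Reduction mice.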

How the data were processed

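Per the labels, RNA of 21 gastrocnemius samples (7 mice per group) was sequenced after poly(A) selection. The authors used fastp for trimming, STAR for alignment to GRCm39 and featureCounts for counting, and the deposited values are raw counts per gene. A table deposited under a normalized name was equal to it in all 857913 values and was not used. Genes were tested in edgeR 4.0.16 (R 4.3.3) with TMM normalization, filterByExpr and the 3 groups in 1 quasi-likelihood fit, and 16129 were tested. Normalized counts used DESeq2 1.42.0 size factors. Ratios used raw counts. Standard errors of edgeR fold changes were the log2 fold change divided by the root of F, and those of ratios came from the group variances. Library depth of 38482455 to 59785132 counts left little counting error, and p-values cover the spread between mice. Positions and lengths came from GENCODE vM39, copies from BLAST 2.17.0+ and promoters from RefSeq (GRCm38.p6, located in GRCm39). The fit was tested on simulated data. Genes were named by rule, all members, 4 heavy chains, up to 4 genes per list with the smallest p-value, and the 10 most and 5 least like the mean ratio. Outside this rule, overlapping genes and some markers of other cells with an unadjusted edgeR p-value under 0.05 were named. Members, pairs and lists were chosen with earlier results of these data known. Alternatives changed the tool, scaling, filter, liver division, replicate block and each library in turn.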

Additional observations from a re-analysis of the deposited data

Results flagged for a closer look

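In 7 of 45 sets of 7 mice (10 genes and 5 ratios in 3 groups), the lowest mouse lay apart from the other 6 by Dixon's criterion, where chance gives about 1 set in 20. Active replicate 3 was the mouse in 5 of these. It had 4121 normalized counts of Tnnt1, against 8443 to 11660 in the other Active mice, and log2 ratios of -7.18 for troponin I, -8.30 for troponin C, -7.76 for troponin T and -5.19 for the essential light chain. Activity Reduction replicate 4 had a log2 ratio of 4.67 for the regulatory light chain, against 5.57 to 6.08 in its group. Activity Reduction replicate 1 had 250930 normalized counts of Tnni2, against 314266 to 351940 in its group. The sets are not independent, since the slow genes moved together.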

How the results depend on the processing

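The count of 0 of 10 members held under every alternative run, and all signs of the members against the Inactive or Active group were kept for the Activity Reduction mice. The 8 libraries with more liver transcripts were not run as an alternative. There, 2 Activity Reduction mice had log2 differences in Mylpf of -0.02 from 1 Inactive mouse and -0.24 from 5 Active mice. Among the alternatives, sign changes were found only in Active against Inactive. With the liver division as a covariate the log2 fold change became 0.0906 for Tnni1, 0.0628 for Tnnc1, 0.0273 for Tnnt1, 0.105 for Myl3, 0.0687 for Tnni2 and 0.00917 for Tnnt3. Within the 13 libraries with fewer liver transcripts it became 0.0620 for Tnni1, 0.0318 for Tnnc1, 0.00910 for Tnnt1, 0.0606 for Myl3 and 0.0499 for Tnni2, and the log2 ratio became 0.0152 for troponin I, 0.0542 for troponin C and 0.0242 for troponin T. Leaving out 1 mouse gave ranges from -0.0152 to 0.10 for Myl2, from -0.10 to 0.0216 for Myl3, from -0.0253 to 0.0128 for Tnni2 and from -0.0364 to 0.00110 for Tnnt3. The cause was not tested.

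For the ratios, 5 of 5 stayed under 0.05 in Activity Reduction against Inactive with medians and with unlogged ratios. In Activity Reduction against Active the count of 1 became 0 with medians, 0 within the libraries with fewer liver transcripts (5 mice against 2, smallest possible p 0.0476, where the regulatory difference was -0.64) and 0 with Myl2 over Myl1, and leaving out 1 mouse gave 0 to 4. For the other sarcomere genes, DESeq2 gave 2 where edgeR gave 0. Replicate numbers were not taken to pair the mice in the main tests. Only 3, 3 and 2 of 7 pairs had correlated deviations over 0.1, but the highest reached 0.498, 0.600 and 0.436. Some shared structure is therefore not excluded. With the replicate block, 0 members were called in each comparison, and the ratios in Activity Reduction against Inactive had sign-flip permutation p-values of 0.0469 for troponin I, 0.0156 for troponin C, troponin T and the regulatory pair and 0.0781 for the essential pair.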
